A study of Mus musculus with 24 samples.

Results

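Transcripts of 7 genes that respond to low oxygen or carry out glycolysis were followed in mouse embryonic fibroblasts under endoplasmic reticulum (ER) stress. The genes were Adm, Pdk1, Bnip3, Pfkp, Ldha, Pgk1 and Slc2a1, and every probe set that the array's gene table gives to them was taken. They are 7 of 8251 genes that the table names on the array, with 8 of its 12488 probe sets, because Pfkp had 2. Arrays were hybridised with total RNA of primary fibroblasts, either wild type or CHOP-/-, which lack the transcription factor CHOP encoded by Ddit3. The 6 groups were wild type and CHOP-/- cells that were untreated, or that had 4 h or 8 h of tunicamycin at 2 µg/ml. Tunicamycin blocks N-linked glycosylation, so that misfolded proteins gather in the ER. Each group had 4 arrays with the letters A to D, 24 in all. The labels give passage 3 for untreated wild type A, B and C alone, name no solvent-only group and give no time for the untreated cells. So an effect of tunicamycin, of time in culture and of handling cannot be told apart here. The labels do not say whether the arrays within a group are separate cultures, and p-values measure the spread between these samples, which may be technical.

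In low oxygen, the transcription factors HIF-1 and HIF-2, made of an oxygen-labile alpha subunit (Hif1a, Epas1) and the stable partner Arnt, bind a short core, either ACGTG with A first or its variant GCGTG, to switch on a shared set of genes. Slc2a1 (GLUT1) brings glucose into the cell. Pfkp, the platelet-type phosphofructokinase, carries out a committed step of glycolysis, Pgk1 makes ATP further down the pathway, and Ldha turns pyruvate into lactate. Pdk1 phosphorylates and so inhibits pyruvate dehydrogenase, which keeps pyruvate out of the mitochondria. Bnip3 sits in the outer mitochondrial membrane and takes part in mitophagy and cell death. Adm encodes adrenomedullin, a secreted peptide that widens blood vessels.

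The 250 bases before the RefSeq transcription start (GRCm38.p6) are shown for 4 of the genes, because they stand for the contrast in the results: Adm and Bnip3 fell in both genotypes, and Ldha and Pgk1 were not called in any comparison. They are written 5′ to 3′ on the strand of the gene, with the core in capitals on whichever strand it lies, so that it reads CACGT for the first form or CACGC for the second form where it is on the other strand. The Adm window is chr7:110627407-110627656 on the plus strand, that of Bnip3 chr7:138909507-138909756 on the minus strand, that of Ldha chr7:46845554-46845803 on the plus strand and that of Pgk1 chrX:106186850-106187099 on the plus strand.
Adm: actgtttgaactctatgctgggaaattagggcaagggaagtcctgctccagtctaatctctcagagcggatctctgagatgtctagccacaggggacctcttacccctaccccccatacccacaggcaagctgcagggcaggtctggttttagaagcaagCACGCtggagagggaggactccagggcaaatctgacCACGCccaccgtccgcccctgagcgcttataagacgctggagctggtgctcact
Bnip3: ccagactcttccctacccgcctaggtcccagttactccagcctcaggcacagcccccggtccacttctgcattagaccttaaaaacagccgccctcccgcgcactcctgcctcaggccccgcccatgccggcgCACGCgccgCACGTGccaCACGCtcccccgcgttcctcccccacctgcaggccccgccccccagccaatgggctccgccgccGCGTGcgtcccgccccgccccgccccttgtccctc
Ldha: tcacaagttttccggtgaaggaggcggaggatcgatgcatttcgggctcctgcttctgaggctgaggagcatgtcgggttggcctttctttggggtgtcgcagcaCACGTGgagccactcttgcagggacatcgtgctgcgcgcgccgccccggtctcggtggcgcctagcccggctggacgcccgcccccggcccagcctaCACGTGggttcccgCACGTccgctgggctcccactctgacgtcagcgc
Pgk1: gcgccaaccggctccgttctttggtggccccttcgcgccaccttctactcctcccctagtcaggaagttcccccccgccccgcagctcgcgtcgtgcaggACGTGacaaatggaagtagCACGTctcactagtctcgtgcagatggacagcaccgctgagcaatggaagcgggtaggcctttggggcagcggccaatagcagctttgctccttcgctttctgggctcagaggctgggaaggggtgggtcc
The Adm window held 2 matches of GCGTG and 0 of ACGTG, and the Bnip3 window held 3 of GCGTG and 2 of ACGTG. The Ldha window held 5 matches of ACGTG and 0 of GCGTG, and the Pgk1 window 2 and 0. A palindromic CACGTG counts once on each strand, so that the matches form 4 separate stretches in Bnip3 and 3 in Ldha. The first listed start of Pdk1 had 1 GCGTG, Pfkp had 3 and Slc2a1 had 1 of each, while the second listed starts of Pdk1 and Ldha had 0 and 1 GCGTG. The form ACGTG was thus present upstream of Bnip3, Ldha, Pgk1 and Slc2a1 and not in these windows of Adm, Pdk1 and Pfkp. Of 32851 mouse promoter windows of the same length, 16.6% held ACGTG, 28.2% held GCGTG and 38.6% held either, so a match is common and is a description only.

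Ddit3 was read first as a check of the genotype labels. Its signal was 215.5 to 437 in untreated wild type cells, 2773.9 to 4396.6 at 4 h and 3857 to 4883 at 8 h, against 6.9 to 40.4 over all 12 CHOP-/- arrays. Of 13 fibroblast markers, 11 lay on all arrays above a signal of 28.5, the filter that a probe set's mean had to pass to be tested, which all 8 member probe sets passed; the probe set for Vim, which fibroblasts express strongly, had a mean of 22. Of 7 leukocyte markers, 3 (Csf1r, Lyz2 and Cd14) lay above it on all arrays. Ptprc lay below it on 23 of the 24 arrays (mean 10.1), Itgam on 18, Adgre1 on 15 and Cd68 on 2. The summed signal of the 7 thus rests mainly on Cd14, Lyz2 and Csf1r, with means of 617.1, 368.6 and 133.1. This sum of 7 was high in wild type A and B at every time and low in C and D, from 552.2 to 3627.2 in untreated wild type cells and from 417.5 to 1387.8 over the CHOP-/- arrays. In bulk samples, fewer cells of a type and less RNA per cell cannot be told apart. On the log2 scale the array median was 0.266 above the average array for wild type 4 h A, and 0.273 below it for C, and CHOP-/- 4 h C and D lay beside the untreated arrays on the first principal component, which held 22.8% of the variance. Herpud1, an ER stress gene, was nevertheless between 4060.1 and 5367.2 on all 4 CHOP-/- 4 h arrays. Values of Adm at 4 h are also given without them. Without wild type 4 h A and C the other 7 probe sets were again not called at 4 h in wild type cells, at -0.45 for Bnip3, -0.40 for Pdk1, -0.29 and -0.34 for Pfkp and -0.29 for Slc2a1. Nor were these 7 called at 4 h in CHOP-/- cells without CHOP-/- 4 h C and D. Bnip3 was then at -0.57 against -0.34 with all arrays, and Slc2a1 at 0.20 against 0.40.

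Adm had the largest changes of the 7 genes. In untreated wild type cells its signals were 439.6, 429.6, 303.0 and 216.5 on arrays A to D. At 4 h they were 109.7, 120.9, 129.3 and 63.8, and at 8 h 120.0, 142.7, 91.9 and 60.5. Every treated wild type array lay below every untreated one, and the means were 347.2 ± 107 (SD, n = 4), 105.9 ± 29.2 and 103.8 ± 35.6. Differences are given on the log2 scale after a pseudocount of 5.7 and quantile normalization, each with its standard error (SE) and with the p of limma's moderated test adjusted by the Benjamini-Hochberg method over all 6747 tested probe sets. Adm fell by 1.71 at 4 h (SE 0.296, adjusted p = 0.0014), 3.27-fold, and fell by 1.69 at 8 h (adjusted p = 0.0003), 3.23-fold. Without wild type 4 h A and C it fell by 1.90 at 4 h (adjusted p = 0.00728). Only 2 of the 6747 probe sets fell further at 4 h. Between 4 h and 8 h it differed by 0.02 (95% confidence interval -0.59 to 0.63), or by 0.21 without those arrays (adjusted p = 0.966). By array letter, the 4 h differences were -2.21, -1.85, -1.08 and -1.71.

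In CHOP-/- cells Adm started lower and fell again. Its untreated signals were 118.2, 98.4, 83.9 and 141.6, those at 4 h 33.5, 29.1, 79.2 and 47.8, and those at 8 h 25.1, 25.5, 32 and 21.7. The means were 110.5 ± 25.0 (SD, n = 4), 47.4 ± 22.7 and 26.08 ± 4.30. No treated array overlapped the untreated ones. Adm fell by 1.20 at 4 h (adjusted p = 0.0396) and fell by 1.76 at 8 h (adjusted p = 0.000246). At 8 h 3 of the 4 arrays lay under the filter signal of 28.5, so the size there is a bound: with those arrays set to that signal, Adm was at least 3.69-fold lower than in untreated CHOP-/- cells. The 4 h call is marginal. It was lost in 10 of 20 settings, among them those without any 1 of untreated A, B or D or 4 h A, B or D (adjusted p 0.0835 to 0.129), and with only the compared groups fitted the adjusted p was 0.142, whereas without arrays C and D of CHOP-/- 4 h Adm fell by 1.60 (adjusted p = 0.012).

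The genotypes differed in Adm before any treatment. Every untreated CHOP-/- array lay below every untreated wild type array, by 1.62 on the log2 scale in the fit (a 3.07-fold lower level, adjusted p = 0.00538). At 8 h the groups did not overlap either, and the level in CHOP-/- cells was lower by 1.68 (adjusted p = 0.00123), 3.21-fold in the fit. With the arrays under the filter set to 28.5, the ratio of geometric means of the deposited signals was 3.37-fold. At 4 h the difference was -1.11 and missed the threshold (adjusted p = 0.0507); without CHOP-/- 4 h C and D it was -1.50 (adjusted p = 0.0312), and without wild type 4 h A and C it was -0.92 (adjusted p = 0.271); it was also called without wild type 4 h D or CHOP-/- 4 h C alone. Over the 6 groups the mean signal therefore ran from untreated wild type cells through untreated CHOP-/-, wild type 4 h and wild type 8 h, which lay within each other's spread, to CHOP-/- 4 h and CHOP-/- 8 h. The response itself was not measurably different between the genotypes. The change in CHOP-/- cells less that in wild type cells was 0.51 at 4 h (95% confidence interval -0.35 to 1.38) and -0.07 at 8 h (-0.93 to 0.80), intervals that leave room for a difference of either sign. Across all 24 arrays, Adm correlated with the log2 sum of leukocyte markers at r = 0.43, and the part of these markers in the result was not tested. The marker sums of untreated wild type A to D were 2002.3, 3627.2, 552.2 and 816.5, and those of the untreated CHOP-/- arrays lay between 500.1 and 1387.8.

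**Figure D1:**
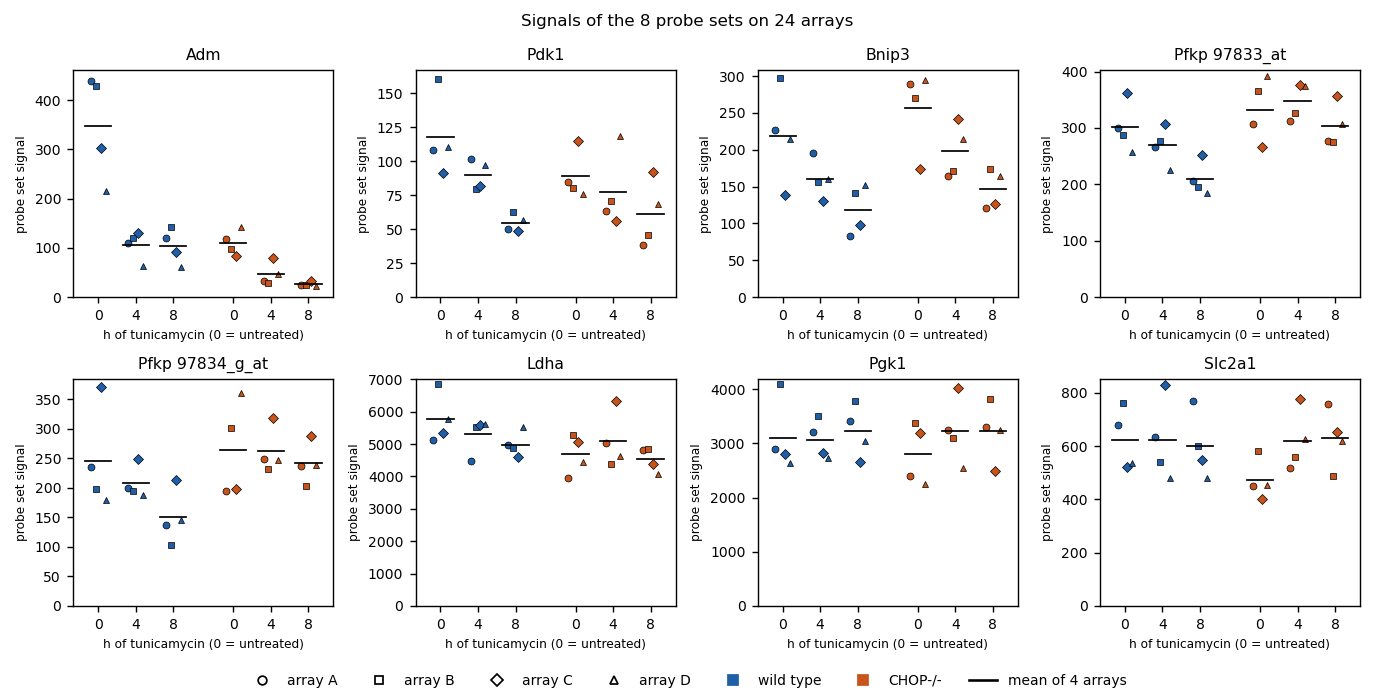
Signals as deposited of the 8 probe sets (vertical axis, linear from 0, own scale in each panel) against hours of tunicamycin for wild type cells (left of each panel, blue) and CHOP-/- cells (right, orange); each point is 1 of 24 arrays, its shape the array letter, and each line the mean of 4. Adm drops from a mean of 347.2 to 105.9 in wild type and from 110.5 to 26.08 in CHOP-/- cells, while the Pgk1 arrays overlap in all 6 groups.

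Pdk1 fell in wild type cells at 8 h. Its signals were 108.2, 160.5, 91.1 and 110.5 in untreated wild type cells, 101.5, 79.6, 81.7 and 97.1 at 4 h and 50.3, 62.3, 48.8 and 56.5 at 8 h. The 8 h arrays lay below all others of the genotype, with a mean of 54.5 ± 6.19 (SD, n = 4) against 117.6 ± 29.9. The difference was -0.38 at 4 h (adjusted p = 0.675) and the fall at 8 h was 0.97 (SE 0.228, adjusted p = 0.00478), 1.96-fold. From 4 h to 8 h the arrays did not overlap, but the difference of -0.59 was not called (adjusted p = 0.195). The CHOP-/- signals scattered more, at 84.6, 80.2, 114.9 and 75.5 untreated, 63.4, 70.6, 56.1 and 118.2 at 4 h and 38.6, 45.8, 91.8 and 68.7 at 8 h. The groups overlapped there, and the 8 h difference of -0.47 was not called (adjusted p = 0.194). Nor were the genotypes shown to respond differently, since the difference of the 8 h responses was 0.50 with an interval from -0.17 to 1.17.

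Bnip3 fell in both genotypes by 8 h. In wild type cells the signals were 226.4, 297.1, 139.0 and 215.0 untreated, 195.6, 156.1, 129.9 and 160.0 at 4 h and 83.6, 141.1, 97.9 and 152.1 at 8 h. Untreated array C was low, so the groups overlapped, but each 8 h array lay below the untreated array of its letter. The fall at 8 h was 0.85 (SE 0.212, adjusted p = 0.0077), 1.80-fold. The CHOP-/- signals were 290.0, 270.0, 173.9 and 295.0 untreated, 164.1, 171.9, 241.4 and 214.3 at 4 h and 121.3, 173.5, 125.8 and 164.8 at 8 h. Here the 8 h arrays did not overlap the untreated ones, though the margin was 173.5 against 173.9. The fall was 0.77 (adjusted p = 0.0177), 1.70-fold, and the call was lost without any 1 of untreated A, B or D or 8 h A or C (adjusted p up to 0.0603). At 4 h neither genotype passed the test, with differences of -0.44 in wild type cells (adjusted p = 0.474) and -0.34 in CHOP-/- cells (adjusted p = 0.608). The 8 h responses differed by 0.08 (95% confidence interval -0.54 to 0.70), and Bnip3 was not called between the genotypes at any time.

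Pfkp fell at 8 h in wild type cells and was not called in CHOP-/- cells. The first of its probe sets, 97833_at, read 299.3, 286.6, 362.7 and 257.2 in untreated wild type cells and 205.1, 196.0, 252.9 and 184.1 at 8 h, with 266.5, 276.8, 307.8 and 224.7 in between. The CHOP-/- arrays read 306.4, 366.2, 266.1 and 391.6 untreated, 311.6, 326.3, 376.8 and 374.9 at 4 h and 276.8, 274.8, 356.0 and 306.9 at 8 h. In wild type cells the 8 h arrays lay below the untreated ones, and in CHOP-/- cells the times overlapped. The fall in wild type cells was 0.55 (SE 0.153, adjusted p = 0.0163), 1.46-fold, and the 8 h difference in CHOP-/- cells was -0.13 (adjusted p = 0.667). The wild type call was lost with median centring (adjusted p = 0.124), without untreated C (0.067) and without 8 h D (0.0553).

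The second Pfkp probe set, 97834_g_at, was designed on the same transcript record and ran with the first at r = 0.92 over 24 arrays, so the pair is not independent. Its means were 246.0 ± 86.6 (SD, n = 4) untreated, 208.4 ± 28.0 at 4 h and 149.98 ± 46.3 at 8 h in wild type cells, and 264.2 ± 81.9, 262.1 ± 38.2 and 242.1 ± 34.4 in CHOP-/- cells. It fell by 0.72 at 8 h in wild type cells (adjusted p = 0.0452), with overlapping arrays, a call that was lost in 10 of 18 planned and added settings. At 8 h, probe set 97833_at was higher on every CHOP-/- array than on every wild type array. The difference was 0.53 (95% confidence interval 0.21 to 0.85) and just missed the threshold (adjusted p = 0.0511). Arrays with the same letter deviated together in this comparison, and with the letter as a replicate block the adjusted p was 0.032. That fit takes the effect of a letter as the same on all 24 arrays. Letters were not shown to pair in the CHOP-/- time comparisons or between genotypes in untreated cells and at 4 h. The differences by letter were 0.46, 0.49, 0.48 and 0.70. For 97834_g_at the difference was 0.72 (adjusted p = 0.108). Without wild type 8 h C both probe sets were called (adjusted p = 0.0318 and 0.0447). The test of the 8 h responses against each other gave 0.42 (95% confidence interval -0.03 to 0.87) and 0.65 (-0.06 to 1.35), neither called, so a fall that depends on CHOP was not shown. The 2 probe sets correlated with the leukocyte marker sum at r = -0.34 and -0.49, whose part in the result was not tested. At 8 h the marker sums of wild type A to D were 1929.4, 3175.5, 460.9 and 504.4, against 417.5 to 1138.4 on the CHOP-/- arrays.

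**Figure D2:**
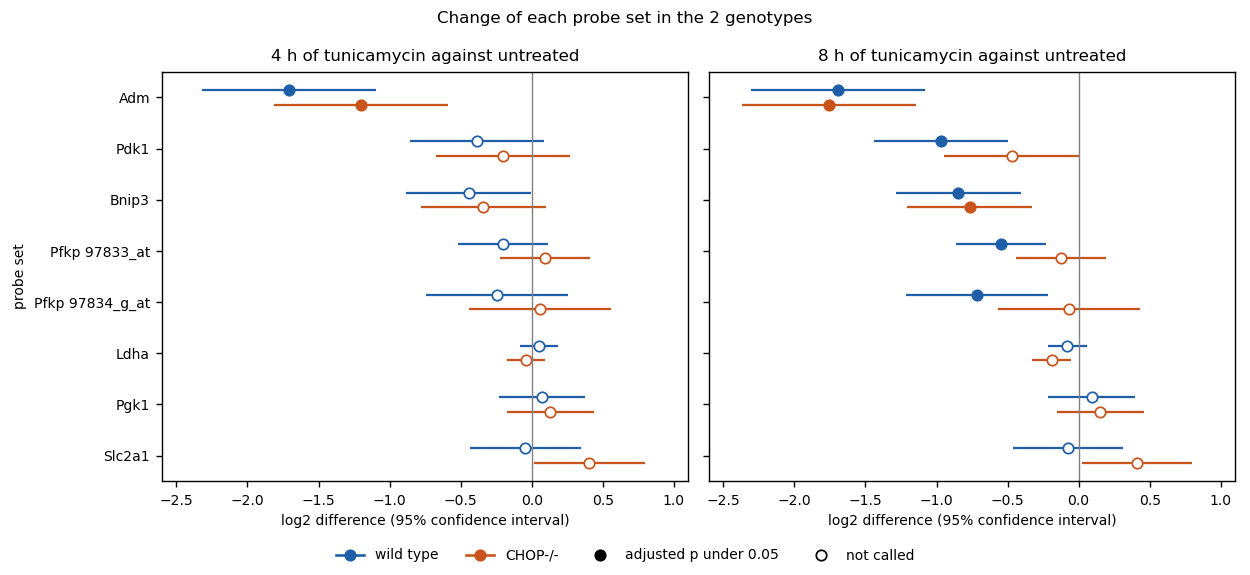
Log2 difference from untreated cells (horizontal axis, log2 of signal plus pseudocount) for the 8 probe sets at 4 h (left) and 8 h (right) in wild type (blue) and CHOP-/- cells (orange); points are the fitted differences, bars 95% confidence intervals, and filled points passed the threshold of adjusted p 0.05. Adm is called in all 4 responses, Bnip3 in both at 8 h and Pdk1 and Pfkp in wild type cells at 8 h, while Ldha, Pgk1 and Slc2a1 stay near 0 in wild type cells.

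The remaining 3 genes were not called in any of the 11 comparisons. Ldha read 5126.3, 6860.4, 5336.8 and 5778.4 in untreated wild type cells and 4963.1, 4871.6, 4601.3 and 5514.0 at 8 h, and 3938.1, 5294.7, 5057.6 and 4446.7 in untreated CHOP-/- cells and 4827.1, 4863.0, 4395.8 and 4085.3 at 8 h. These signals overlapped between the groups. On the normalized log2 scale, however, the CHOP-/- 8 h arrays all lay below the untreated CHOP-/- and the wild type 8 h arrays. Its 8 h difference was -0.08 in wild type cells (95% confidence interval -0.21 to 0.06, adjusted p = 0.488). It was -0.21 with the values as deposited and -0.16 with median centring (adjusted p 0.317 and 0.688), so that its size depends on the scaling. For CHOP-/- cells it was -0.19 (interval -0.32 to -0.06, adjusted p = 0.056), but 0.05 with median centring, so that its sign depends on the scaling. Array weights brought that difference past the threshold (adjusted p = 0.0323). At 8 h the CHOP-/- level differed from that of wild type cells by -0.15 (adjusted p = 0.236), with all 4 letters lower.

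Pgk1 had means between 2804 ± 557 (SD, n = 4) in untreated CHOP-/- cells and 3226 ± 610 in CHOP-/- cells at 4 h. All 6 groups overlapped, and the 8 h differences were 0.09 in wild type cells (95% confidence interval -0.21 to 0.40) and 0.15 in CHOP-/- cells (-0.15 to 0.46). Its variation ran within groups instead. Untreated wild type B, at 4093.4, stood above A, C and D, at 2893.5, 2802.5 and 2643.4, and B was the highest wild type array at 4 h (3512.4) and 8 h (3783.4) too. B was also the array with the highest leukocyte marker sum at each of those times, 3627.2, 3367.2 and 3175.5. These are signals as deposited: on the normalized log2 scale Pgk1 at 4 h was highest on wild type A, at 11.91 against 11.76 for B. Among CHOP-/- arrays, the highest in marker sum was also the highest in Pgk1 at 8 h (B, 3824.5). It was not in untreated cells (A, 2400.9, against 3369.4 for B) or at 4 h (A, 3243.9, against 4018.4 for C). Over 24 arrays Pgk1 correlated with the log2 of that sum at r = 0.69, as a description of arrays that share letters and groups.

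Slc2a1 read 679.2, 762.3, 522.0 and 535.1 in untreated wild type cells and 769.3, 599.3, 549.3 and 479.3 at 8 h. With CHOP absent it read 450.1, 583.2, 402.7 and 453.6 untreated, 519.4, 557.8, 777.7 and 625.1 at 4 h and 759.4, 489.0, 652.6 and 620.9 at 8 h. The groups overlapped in both genotypes. The 8 h difference was -0.07 in wild type (95% confidence interval -0.46 to 0.31) and 0.41 in CHOP-/- cells (0.02 to 0.80, adjusted p = 0.167). Untreated CHOP-/- cells read 0.42 lower than untreated wild type cells (adjusted p = 0.527, difference not called), and the 8 h responses differed by 0.49 (interval -0.07 to 1.04).

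**Figure D3:**
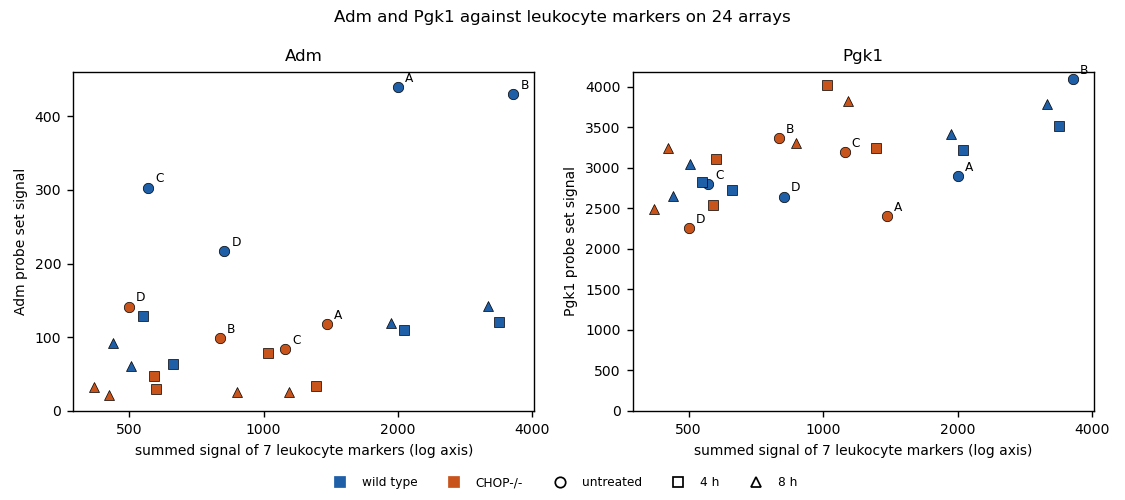
Signals of Adm (left) and Pgk1 (right) against the summed signal of 7 leukocyte markers (log axis) on 24 arrays; colour gives the genotype, shape the time, and letters name the untreated arrays. Untreated wild type cells lie above untreated CHOP-/- cells in Adm, and Pgk1 runs with the marker sum at r = 0.69.

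Counted together, 1 of the 8 probe sets was called lower at 4 h in wild type cells, where 0.311% of all tested probe sets were, and 5 of 8, which stand for 4 genes, at 8 h, where 6.4% were called lower and 15.5% in either direction. In CHOP-/- cells the counts were 1 of 8 at 4 h, against 0.43% of all, and 2 of 8 at 8 h, against 6.08% called lower and 13% in either direction. In these 4 comparisons 0 members were called higher, where 1.7% and 9.06% of all probe sets were at 4 h and 8 h in wild type cells and 0.963% and 6.88% in CHOP-/- cells, so that 0 of 8 is near the background. The median of the members was -0.63 in wild type cells at 8 h beside -0.01 for all tested probe sets, and -0.16 beside -0.01 in CHOP-/- cells. Because the 7 genes were chosen with earlier results of these data known, these counts and medians describe them and are no test. Between 4 h and 8 h 0 members passed in wild type cells (3.63% of all; at an unadjusted p under 0.05 it was 2 members, and 14.6% of all) and 0 in CHOP-/- cells (5.2% of all; 1 member unadjusted, and 19% of all). Between the genotypes limma called 1 of 8 lower in untreated cells (0.326% of all), 0 at 4 h (2.03% of all in either direction; 2 members unadjusted, and 15% of all) and 1 lower at 8 h (1.82% of all). For the difference of responses the members called were 0 at 4 h and 0 at 8 h, where 0% and 0.0296% of all probe sets were called. At an unadjusted p under 0.05 it was 0 members at either time, and 3.85% and 4.36% of all. So 0 of 8 is near the background there too. The comparisons of a genotype share its untreated arrays, and those between genotypes share arrays with both.

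Of 22 listed glycolytic enzymes, 15 genes were tested with 18 probe sets, 14 of them not Pfkp, Ldha or Pgk1. At 8 h, 2 of these 14 fell and 0 rose in wild type cells: Pfkm, the muscle-type phosphofructokinase, by 1.01 (adjusted p = 0.00154) and Pgam1, phosphoglycerate mutase, by 0.29 (adjusted p = 0.0268). Without CHOP, Pfkm fell by 0.85 (adjusted p = 0.00785), Tpi1, triosephosphate isomerase, fell by 0.59 (adjusted p = 0.0132) and Hk2, a hexokinase that traps glucose in the cell, rose by 0.79 (adjusted p = 0.0106). These counts of 2 and 3 of 14 lie near the 15.5% and 13% of all probe sets called. In the difference of the 8 h responses 0 of the 14 were called, against 0.0296% of all. The median over the 14 was -0.27 in wild type and -0.15 in CHOP-/- cells. Pfkp and Pfkm, subunits of the same enzyme, thus both fell in wild type cells, with Pfkm at 193.8 ± 21.1 (SD, n = 4) untreated and 93.9 ± 17.7 at 8 h. None of the 3 tested glucose and lactate transporter probe sets (Slc2a1, Slc2a8 and Bsg) was called at 4 h or 8 h in either genotype. Over all probe sets 2.02% and 1.39% were called at 4 h in wild type and CHOP-/- cells, and 15.5% and 13% at 8 h. At these shares 0 of 3 is near the background, and only 3 of the 12 transporter probe sets on the array were tested. Slc2a3, which encodes GLUT3, lay below the filter. Among pyruvate dehydrogenase and its kinases, Pdk1 was the only 1 of 6 called in wild type cells at 8 h, near the 15.5% of all probe sets. Pdk3, a second kinase of the complex, differed by 0.00 (adjusted p = 0.993), Pdk4 lay below the filter, and Dld, a subunit of the complex, rose by 0.50 in CHOP-/- cells (adjusted p = 0.0336). In the difference of the 8 h responses 0 of these 6 were called.

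Of 13 probe sets for 9 HIF subunits and regulators, 0 were called at 4 h or 8 h in either genotype. Over all probe sets 2.02% and 1.39% were called at 4 h and 15.5% and 13% at 8 h in wild type and CHOP-/- cells, shares at which 0 of 13 is not far from the background. The 2 probe sets of Hif1a, whose protein is controlled mainly by its breakdown, differed by -0.18 and -0.11 at 8 h in wild type cells, and Arnt by -0.01. Reported HIF targets other than the 7 genes went both ways. Of 28 probe sets, 7 fell and 6 rose in wild type cells at 8 h, and 2 fell and 5 rose in CHOP-/- cells. Over all probe sets 6.4% fell and 9.06% rose in wild type cells and 6.08% and 6.88% in CHOP-/- cells, so that 2 of 28 is near the background. Among those that fell in wild type cells was Bhlhe40, a transcriptional repressor, at 956.4 ± 222.9 (SD, n = 4) untreated and 235.7 ± 73.3 at 8 h, a fall of 2.03 (adjusted p = 9.45e-05). In CHOP-/- cells it read 955.4 ± 473.4 and 675.3 ± 89.1, a difference of -0.32 (adjusted p = 0.584), and the test between the responses gave 1.71 (adjusted p = 0.629). Those that rose include Stc2, a secreted glycoprotein, by 1.59 and 1.90 in wild type and CHOP-/- cells (adjusted p = 4.11e-06 and 4.08e-07), and Ero1a, an ER oxidase that is also known as an ER stress gene, by 1.16 and 0.60 on 1 of its probe sets. Ddit4, an inhibitor of mTORC1 signalling, rose by 0.53 (adjusted p = 0.0434) and 1.13 (adjusted p = 0.000123). Vegfa, the vascular growth factor, differed by 0.16 in wild type cells at 8 h (adjusted p = 0.683) and rose by 0.90 in CHOP-/- cells at 8 h (adjusted p = 0.00475). In the difference of the 8 h responses 0 of the 28 probe sets were called, against 0.0296% of all. A response that differs between the genotypes was thus not shown for them.

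**Figure D4:**
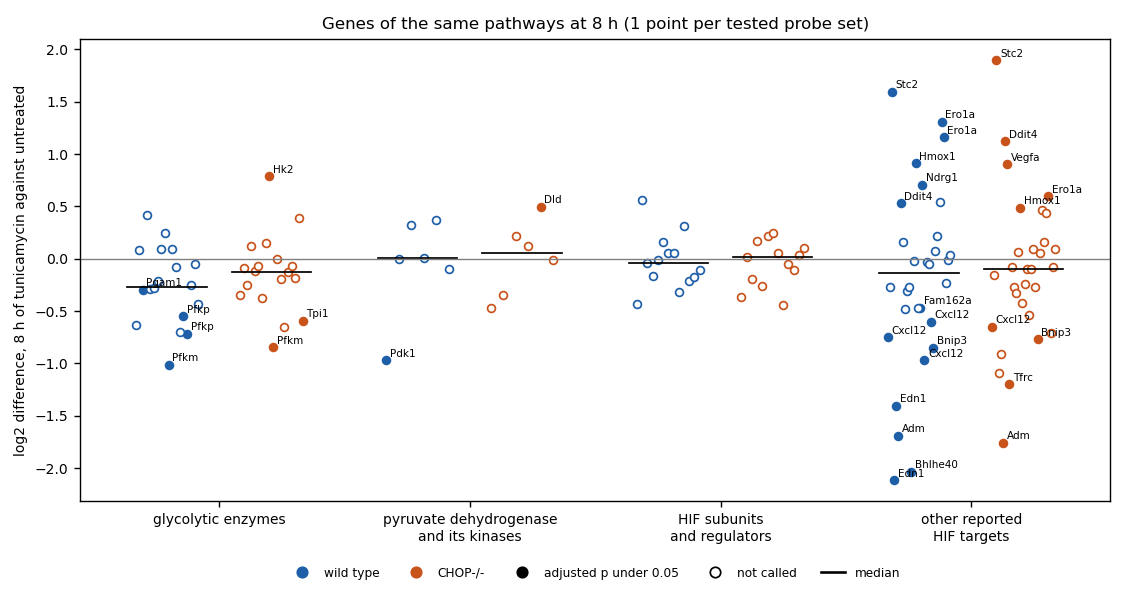
Log2 difference of 8 h of tunicamycin against untreated cells (vertical axis) for tested probe sets of 4 gene lists in wild type (blue) and CHOP-/- cells (orange), the 7 genes included; filled, named points passed adjusted p 0.05 and lines are medians. HIF subunits have no filled point, and reported HIF targets spread in both directions, from Edn1 at -2.12 in wild type to Stc2 at 1.90 in CHOP-/- cells.

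Partners of Adm and Bnip3 were examined as lists too. Ackr3, a scavenger receptor for adrenomedullin and for Cxcl12, fell by 1.86 at 8 h in wild type (adjusted p = 0.000614) and fell by 1.73 in CHOP-/- cells (adjusted p = 0.00154). Its signal went from 81.2 ± 18.5 (SD, n = 4) to 16.6 ± 2.5 and from 89.2 ± 29.7 to 23.3 ± 13.4, means that lie under the filter signal at 8 h, so that these sizes are not exact. Pam, the enzyme that amidates the peptide, fell by 0.81 in CHOP-/- cells (adjusted p = 0.00802). Crcp, a receptor component, rose there by 0.59 (adjusted p = 0.00577), and Ramp1 and Ramp3, accessory proteins of the receptor, were not called at 8 h. The receptor Calcrl itself and Ramp2 lay below the filter. Of 14 other probe sets for mitophagy and autophagy genes, 0 fell in either genotype at 8 h, a count near the background of 6.4% and 6.08%. In wild type cells 3 of the 14 rose, where 9.06% of all tested probe sets were called higher: Sqstm1, an autophagy receptor, by 0.86 (adjusted p = 5.74e-06), Atg12 by 0.76 (adjusted p = 0.0115) and Atg5 by 0.49 (adjusted p = 0.0218). Atg12 rose by 0.72 in CHOP-/- cells (adjusted p = 0.019), the only 1 of the 14 called higher there, which is near the 6.88% of all probe sets.

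The probe sets most like each gene were named by Pearson's r of log2 values over the 24 arrays, as a description. Those of Adm were Psma5, Ermp1 and Cks2 (r = 0.83 for each). Pfkp ran with Rflnb (0.91), Cxcl12 (0.90) and Bhlhe40 (0.88), the last of them also a reported HIF target that fell at 8 h in wild type cells. Pdk1 ran with Apcdd1 (0.78), and Bnip3 with Slc25a17 (0.82). Pgk1 was most like Laptm5 (0.80), a gene of blood cells, followed by Sugp2 (0.79) and by Cd300c2 (0.76), a leukocyte receptor. Ldha and Slc2a1 had weaker likenesses, to Aurka (0.75) and Acsf3 (0.71).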

How the data were processed

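Probe set signals were deposited by the authors as linear intensities, 1 table over 24 arrays. Per the values, each array had been scaled to a 2% trimmed mean of about 250; the software that did so is not given in the sources. Of 12488 probe sets, 10833 were no controls and had 1 gene in the array's gene table. Signals plus 5.7 (their 20th percentile) were log2 transformed and quantile normalized, and 6747 probe sets with a mean above the 40th percentile (a signal of 28.5) were tested. Fold changes on this scale understate changes of low signals. A model of 6 group means was fitted with limma 3.58.1 (intensity trend, 18 residual degrees of freedom), with p-values two-sided and adjusted within each of 11 comparisons; calls were at adjusted p under 0.05. The fit was tested on simulated data. Precision is limited by the 4 arrays of a group.

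The 7 genes and the 7 gene lists were chosen with earlier results of these data known. Of each list, up to 4 called genes with the smallest adjusted p at 8 h were named, with called genes against the direction of most and a few fixed names (Hif1a, Arnt, Vegfa, Pdk kinases, receptor genes, Hk2, Slc2a3); Atg5, Atg12 and Edn1, and the labels in the plot of pathway genes, were added after values were seen. Array letters were checked as pairs: same-letter correlations of deviations were all over 0.1 in the wild type time comparisons (0.308 to 0.555 at 4 h, 0.391 to 0.616 at 8 h) and between genotypes at 8 h (0.267 to 0.543), but not in the CHOP-/- time comparisons or between genotypes in untreated cells and at 4 h. Alternatives changed the pseudocount, filter, scaling, probe set choice, block, groups fitted, weights and arrays included. Promoter windows came from RefSeq (GRCm38.p6). R and Python with matplotlib were used.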

Additional observations from a re-analysis of the deposited data

Results flagged for a closer look

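In wild type cells at 4 h, Ldha on array A read 4478.3, far below the other 3 arrays at 5529.6, 5601.3 and 5621.4. Its gap, as a share of the range, exceeded Dixon's 95% critical value for 4 samples. This holds for signals as deposited: on the normalized log2 scale used for the tests array A was the highest of the 4, at 12.52 against 12.31 to 12.40. It was the only such value among 48 sets of 4 arrays (8 probe sets in 6 groups), and chance flags about 1 set in 20.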

How the results depend on the processing

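Over 88 member results, none reversed a call under the alternatives run; 105 of 1853 values changed sign, all in results that were not called. Member counts moved as follows. In wild type cells at 8 h, 5 became 3 with median centring and ranged from 3 to 5 with 1 array left out. In CHOP-/- cells at 4 h, 1 became 0 with a pseudocount of 32, no filter, median centring or only the compared groups, and ranged from 0 to 1; at 8 h 2 became 3 with array weights and ranged from 1 to 2 with 1 array left out. Between genotypes at 4 h, 0 became 1 (Adm) with a pseudocount of 1, values as deposited, 1 probe set per gene, array weights, the replicate block (adjusted p = 0.0298, letters not shown to pair here), or (chosen after seeing the data) without CHOP-/- 4 h C and D, and ranged from 0 to 1. At 8 h, 1 became 2 as deposited, with 1 probe set per gene or with the replicate block, and 3 with array weights, and ranged from 1 to 3. The replicate block changed no other call. Over all probe sets, fitting only the compared groups lowered calls from 136 to 79 and 94 to 25 at 4 h in wild type and CHOP-/- cells, from 245 to 123 and 351 to 172 between 4 h and 8 h, and from 59 to 22 and 137 to 55 between untreated and 4 h genotypes. At 4 h in CHOP-/- cells calls were 61 with no filter, 59 as deposited and 50 with median centring. Array weights gave 209 (wild type 4 h), 1620 against 1043 (wild type 8 h), 96 (untreated genotypes) and 598 against 263 (8 h genotypes), and the block 222 (4 h genotypes). Without wild type 4 h A and C calls were 64 at 4 h, 55 between 4 h and 8 h and 59 between genotypes; without CHOP-/- 4 h C and D they were 35 between 4 h and 8 h and 54 between genotypes. Leaving out 1 array gave, at 4 h, 72, 84 and 86 calls in wild type cells (without untreated A, 4 h A and 4 h D) and 60, 61, 62, 61 and 56 in CHOP-/- cells (untreated A, B and C, 4 h B and D). Between 4 h and 8 h it gave 114, 145 and 109 in wild type (4 h C, 8 h A and D) and 137, 158, 209, 196 and 174 in CHOP-/- cells (4 h C and D, 8 h A, C and D). Between genotypes it gave 38 in untreated cells (wild type A or CHOP-/- A), 84, 82 and 89 at 4 h (wild type B, CHOP-/- C and D) and 169, 175, 156, 171 and 175 at 8 h (wild type A and D, CHOP-/- A, B and C). Response differences gave 1 against 0 at 4 h (pseudocount 32), and 0 to 5 against 2 at 8 h. Median centring moved the share of calls that were higher at 8 h from 58.6% to 68.9% in wild type and from 53.1% to 66.1% in CHOP-/- cells, and between 4 h and 8 h from 50.6% to 66.8% and from 61.8% to 80.0%. The cause was not tested.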
